A study of Mus musculus with 16 samples.

Results

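Transcripts of splenic macrophages were followed in sorted B cells. The 10 genes were C1qa, C1qb, C1qc, Fcna, Hmox1, Slc40a1, Spic, Csf1r, Vcam1 and Lyz2, out of 22675 genes joined from the deposited counts. All 10 were found in both tables and passed the low-count filter, which left 10687 genes. They were picked by symbol as genes of splenic macrophages whose levels differed between the libraries, so their contrast between genotypes helped to choose them and is given as a description without a test.

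Messenger RNA was sequenced with Smart-seq2, a full-length cDNA method, from spleen B cells of immunized mice, at about 1000 cells per library. There were 16 libraries in 4 groups of 4. KOTP and KOTN were the tdTomato-positive and tdTomato-negative cells of mice homozygous for the Zfp318 ZSDAT allele (ZSDAT/ZSDAT). HetTP and HetTN were the tdTomato-positive and tdTomato-negative cells of mice with 1 such allele (ZSDAT/+). All mice were C57BL/6 with AID-Cre, B1-8hi and GFP alleles, and were sampled 7 days after NP-OVA, LPS and alum. The gate took B220+ CD138- GL7- FAS- CD38+ IgD- cells that bound NIP. No gate for a macrophage or T cell surface marker is given in the labels. Nothing in the labels ties a library to its own animal, so the p-values cover only the variation among these libraries, which may be technical.

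Each genotype was deposited as its own table, so genotype and any difference in how the tables were made cannot be told apart. Total counts per library ran from 7748787 to 14325276 in the homozygous table and from 8099655 to 15742445 in the heterozygous table. The homozygous libraries held 11434 to 11684 genes with a count and the heterozygous libraries 9662 to 10593. The median correlation between libraries of a group was 0.976 in KOTP, 0.976 in KOTN, 0.852 in HetTP and 0.823 in HetTN. Zfp318 averaged 1.86 ± 1.01 CPM (raw counts divided by the library total in units of 1000000) in KOTP and 2.34 ± 2.16 CPM in KOTN, against 113 ± 18.9 CPM in HetTP and 118 ± 30.4 CPM in HetTN (SD, n = 4 each). All 8 homozygous libraries lay below all 8 heterozygous ones. The 7 B cell genes checked (Cd79a, Cd79b, Ms4a1, Pax5, Ebf1, Ptprc and Cd38) were present in every library, at a summed 11852 to 13881 CPM in homozygous and 8978 to 11513 CPM in heterozygous libraries.

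Macrophages of the splenic red pulp clear aged red blood cells and return their iron to the circulation. Heme from the engulfed cells is split by heme oxygenase, and the freed iron leaves through ferroportin. The transcription factor Spi-C is required for this cell type in mice. Splenic macrophages also make complement proteins, which tag particles and dying cells for uptake, while B cells are not known as a main source of C1q.

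The C1q genes lie side by side on the minus strand of chromosome 4 (GRCm38): C1qb at chr4:136880129-136886187, C1qc at chr4:136889804-136893065 and C1qa at chr4:136895917-136898803. The other 7 genes lie on chromosomes 1 (Slc40a1), 2 (Fcna), 3 (Vcam1), 8 (Hmox1), 10 (Spic and Lyz2) and 18 (Csf1r). All 10 are annotated as protein-coding, and counts were taken over coding sequence. Promoters of 5 of the 10 genes matched the RefSeq table (GRCm38.p6) and are shown because 4 of them belong to genes whose levels moved together across the heterozygous libraries, whereas Lyz2 did not. Each is the 250 bases before the RefSeq start, read on the gene's own minus strand, 5′ to 3′. Capitals mark AGGAAGT or its reverse complement ACTTCCT, a core bound by ETS-family factors such as PU.1 and Spi-C.
C1qb: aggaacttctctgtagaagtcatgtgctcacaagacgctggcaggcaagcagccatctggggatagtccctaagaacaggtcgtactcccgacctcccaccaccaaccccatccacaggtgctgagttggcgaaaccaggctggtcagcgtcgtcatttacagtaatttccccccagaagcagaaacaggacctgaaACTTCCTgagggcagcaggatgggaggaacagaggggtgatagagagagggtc
C1qc: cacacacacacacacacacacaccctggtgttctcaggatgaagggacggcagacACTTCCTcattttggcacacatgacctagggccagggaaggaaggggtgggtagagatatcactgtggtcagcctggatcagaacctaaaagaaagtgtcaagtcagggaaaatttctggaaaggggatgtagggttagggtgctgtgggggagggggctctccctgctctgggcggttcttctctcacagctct
Fcna: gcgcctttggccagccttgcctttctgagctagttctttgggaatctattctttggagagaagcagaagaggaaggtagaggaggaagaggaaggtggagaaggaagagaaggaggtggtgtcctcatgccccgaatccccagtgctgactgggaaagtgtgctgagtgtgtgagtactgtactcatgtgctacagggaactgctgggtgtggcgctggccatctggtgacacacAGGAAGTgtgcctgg
Spic: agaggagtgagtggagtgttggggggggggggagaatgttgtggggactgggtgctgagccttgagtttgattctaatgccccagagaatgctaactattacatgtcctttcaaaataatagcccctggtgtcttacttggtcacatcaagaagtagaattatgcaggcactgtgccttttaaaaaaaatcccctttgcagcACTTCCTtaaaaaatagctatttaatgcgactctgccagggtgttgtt
Lyz2: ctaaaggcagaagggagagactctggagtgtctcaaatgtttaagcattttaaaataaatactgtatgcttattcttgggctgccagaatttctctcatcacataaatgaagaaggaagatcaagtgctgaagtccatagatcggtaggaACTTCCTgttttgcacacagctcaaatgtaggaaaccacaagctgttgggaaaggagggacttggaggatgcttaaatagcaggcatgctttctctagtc
The windows are chr4:136886201-136886450 for C1qb, chr4:136892915-136893164 for C1qc, chr2:25627975-25628224 for Fcna, chr10:88683024-88683273 for Spic and chr10:117282273-117282522 for Lyz2. For C1qc, Fcna, Spic and Lyz2 the GENCODE gene starts upstream of the RefSeq start used here. The motif stood once in each of the 5 windows, on the strand shown in Fcna and on the opposite strand in the other 4. It was chosen after the sequences were seen. Searched on both strands, it stood in the promoters of 8.8% of 27025 genes. A match describes letters and does not show a bound site.

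Complement genes. C1qa, C1qb and C1qc encode the chains of C1q, which starts the classical complement pathway. C1qa had 3.21, 5.01, 1.3 and 3.07 CPM in KOTP and 3.87, 3.56, 10.3 and 2.34 CPM in KOTN. Its heterozygous values were 47.2, 16.4, 80.5 and 15.2 CPM in HetTP and 95.6, 246, 40.2 and 22.6 CPM in HetTN. The highest homozygous library lay below the lowest heterozygous one. C1qb had 9.38, 4.0, 1.52 and 6.56 CPM in KOTP and 11.4, 4.01, 9.34 and 3.04 CPM in KOTN. The heterozygous libraries had 148, 6.27, 147 and 63.3 CPM in HetTP and 89.9, 221, 120 and 63.3 CPM in HetTN. HetTP replicate 2, at 6.27 CPM, was within the homozygous range, and the other 7 heterozygous libraries stood above it. C1qc had 3.7, 4.0, 1.95 and 5.44 CPM in KOTP and 2.97, 6.35, 3.87 and 1.64 CPM in KOTN. Its heterozygous libraries had 96.6, 18.3, 78.3 and 28.6 CPM in HetTP and 120, 270, 101 and 40 CPM in HetTN. Homozygous and heterozygous libraries did not overlap for C1qc.

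The fitted change of homozygous over heterozygous cells, on the log2 scale with its standard error, was -3.45 ± 0.74 for C1qa, -3.86 ± 0.76 for C1qb and -3.63 ± 0.62 for C1qc in the tdTomato-positive gate. In the tdTomato-negative gate it was -4.23 ± 0.76 for C1qa, -4.07 ± 0.76 for C1qb and -5.07 ± 0.66 for C1qc. Summed C1q ran from 4.76 to 23.5 CPM in homozygous and from 41 to 737 CPM in heterozygous libraries. The shares of the 3 chains varied between libraries in both genotypes. The share of C1qb in summed C1q counts was 28.8% to 62.4% in homozygous libraries and 15.3% to 59.1% in heterozygous libraries. The homozygous shares rest on 44 to 219 summed C1q counts per library. The part of counting error in their range was not tested.

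Fcna encodes ficolin A, a lectin that starts the lectin pathway of complement and is made by macrophages in mouse spleen and liver. It had 2.96, 0.25, 2.81 and 4.19 CPM in KOTP and 3.74, 2.67, 8.38 and 3.04 CPM in KOTN. The heterozygous values were 76.7, 14.5, 125 and 10.8 CPM in HetTP and 77.4, 166, 55.1 and 10.4 CPM in HetTN. No homozygous library reached the lowest heterozygous one. The changes were -4.22 ± 0.90 in tdTomato-positive and -4.01 ± 0.88 in tdTomato-negative cells.

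Of 12 other complement genes and complement receptors, 5 were tested. In KOTP over HetTP, 1 passed the adjusted p-value threshold of 0.05, where 10.3% of all genes did. In KOTN over HetTN 1 passed, where 10.5% of all genes did. It was Cfp both times, the gene of properdin, a positive regulator of the alternative pathway. Cfp rose to 307 ± 16.5 CPM in KOTP and 436 ± 11.7 CPM in KOTN, against 143 ± 49.3 CPM in HetTP and 182 ± 50.0 CPM in HetTN (SD, n = 4 each). Its change was 1.33 ± 0.23 in both gates, with edgeR adjusted p-values of 0.000976 in tdTomato-positive and 0.00126 in tdTomato-negative cells. The receptors Cr2 and Cd55, which B cells carry, had changes of -0.27 and 0.36 in the tdTomato-positive gate that did not pass (edgeR adjusted p = 0.331 and 0.121).

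Heme and iron genes. Hmox1, heme oxygenase 1, had 0.741, 5.76, 4.11 and 2.09 CPM in KOTP and 11.6, 8.8, 7.3 and 10.2 CPM in KOTN. In heterozygous cells it had 203, 38.5, 135 and 104 CPM in HetTP and 167, 232, 198 and 45.8 CPM in HetTN. Homozygous and heterozygous libraries did not overlap, and within the homozygous ones every KOTP library lay below every KOTN library. The changes between genotypes were -5.02 ± 0.60 in tdTomato-positive and -3.99 ± 0.56 in tdTomato-negative cells. Slc40a1, ferroportin, had 0, 2.0, 0 and 0.419 CPM in KOTP and 1.55, 4.23, 5.15 and 3.97 CPM in KOTN. Its heterozygous libraries had 49.3, 16.3, 32 and 12.2 CPM in HetTP and 27.3, 28.8, 31.5 and 37.4 CPM in HetTN. Slc40a1 varied least among the heterozygous libraries of the 10 genes, with a coefficient of variation of 39.6%, against 111% for Csf1r. Its change was -5.28 ± 0.94 in tdTomato-positive and -2.99 ± 0.82 in tdTomato-negative cells. The 2 KOTP libraries at 0 had no Slc40a1 count at a depth where 3 counts are under 0.5 CPM.

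A list of 16 other genes of heme and iron handling and of the stress factor NRF2 had 12 tested members. None passed in KOTP over HetTP, where 10.3% of all genes did, and 2 fell in KOTN over HetTN, where 10.5% of all genes passed. Ftl1, a ferritin light chain gene, fell to 2314 ± 42.7 CPM in KOTN, against 3686 ± 528 CPM in HetTN (SD, n = 4 each), a change of -0.58 ± 0.13 (edgeR adjusted p = 0.00611). Bach2, a B cell transcriptional repressor, fell by 1.23 on the log2 scale (SE 0.23, edgeR adjusted p = 0.00177). Fth1, the ferritin heavy chain gene, stood at 2726 to 3064 CPM in homozygous and 2656 to 3697 CPM in heterozygous libraries. The biliverdin reductase gene Blvrb, whose product acts after heme oxygenase, had 345 to 420 CPM in homozygous and 261 to 725 CPM in heterozygous libraries and did not pass in either gate (edgeR adjusted p = 0.953 and 0.667).

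Lineage genes. Spic, which encodes Spi-C, had 1.36, 2.0, 5.2 and 3.35 CPM in KOTP and 4.0, 5.57, 3.44 and 5.02 CPM in KOTN. Its heterozygous values were 15.8, 0, 23.2 and 6.17 CPM in HetTP and 32.8, 23.5, 14.4 and 0 CPM in HetTN. Spic was therefore detected in all 8 homozygous libraries and missing from 2 heterozygous ones, so the groups overlapped. Zeros were more common over all tested genes in heterozygous libraries (up to 13.6%) than in homozygous ones (up to 2.34%). A zero in a heterozygous library is therefore not particular to these genes. The changes were -1.70 ± 1.26 in tdTomato-positive and -1.84 ± 1.26 in tdTomato-negative cells, and limma voom put the second at 0.11. Csf1r, the receptor for the macrophage growth factors CSF-1 and IL-34, had 2.96, 1.63, 0 and 0.558 CPM in KOTP and 3.36, 1.45, 3.33 and 0.701 CPM in KOTN. In heterozygous cells it had 19, 1.29, 13.3 and 0 CPM in HetTP and 33.2, 66.1, 30.6 and 0 CPM in HetTN. The groups overlapped because 2 heterozygous libraries had no count and another had 1.29 CPM. The changes were -2.50 ± 1.48 in tdTomato-positive and -3.77 ± 1.54 in tdTomato-negative cells.

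Of 8 other receptors and factors of macrophage growth, 5 were tested. In KOTP over HetTP 1 passed, where 10.3% of all genes did. In KOTN over HetTN 1 rose and 1 fell, where 10.5% of all genes passed. Csf2rb, the shared beta chain of the receptors for GM-CSF, IL-3 and IL-5, with a close paralog in Csf2rb2, fell in both gates. Its changes were -2.14 ± 0.47 in KOTP over HetTP and -1.86 ± 0.47 in KOTN over HetTN (edgeR adjusted p = 0.00571 and 0.0163). Spi1, the gene of PU.1, which B cells and macrophages both use, had 217 ± 16.8 CPM in KOTP and 232 ± 28.3 CPM in KOTN, against 271 ± 9.52 CPM in HetTP and 260 ± 34.2 CPM in HetTN (SD, n = 4 each). It did not pass in either gate (edgeR adjusted p = 0.757 and 0.8). Irf8 rose in KOTN over HetTN by 0.58 ± 0.17 (edgeR adjusted p = 0.0333).

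Adhesion and lysozyme. Vcam1 encodes an adhesion molecule that red pulp macrophages carry on their surface. It ran from 0.216 to 5.19 CPM in homozygous libraries and from 12.6 to 70.9 CPM in heterozygous ones, with no overlap. The changes were -4.25 ± 0.79 in tdTomato-positive and -4.65 ± 0.80 in tdTomato-negative cells. Lyz2 encodes lysozyme M, which is made by macrophages, monocytes and neutrophils, and its reads may be shared with the close paralog Lyz1. It had 16.1, 8.76, 4.22 and 13.2 CPM in KOTP and 7.49, 1.23, 8.91 and 8.06 CPM in KOTN. The heterozygous libraries had 41.9, 0, 66.6 and 60.8 CPM in HetTP and 113, 6.36, 55 and 242 CPM in HetTN. HetTP replicate 2 and HetTN replicate 2 fell inside or below the homozygous range, and the other 6 heterozygous libraries stood above it. The changes were -1.78 ± 1.11 in tdTomato-positive and -3.94 ± 1.21 in tdTomato-negative cells.

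**Figure D1:**
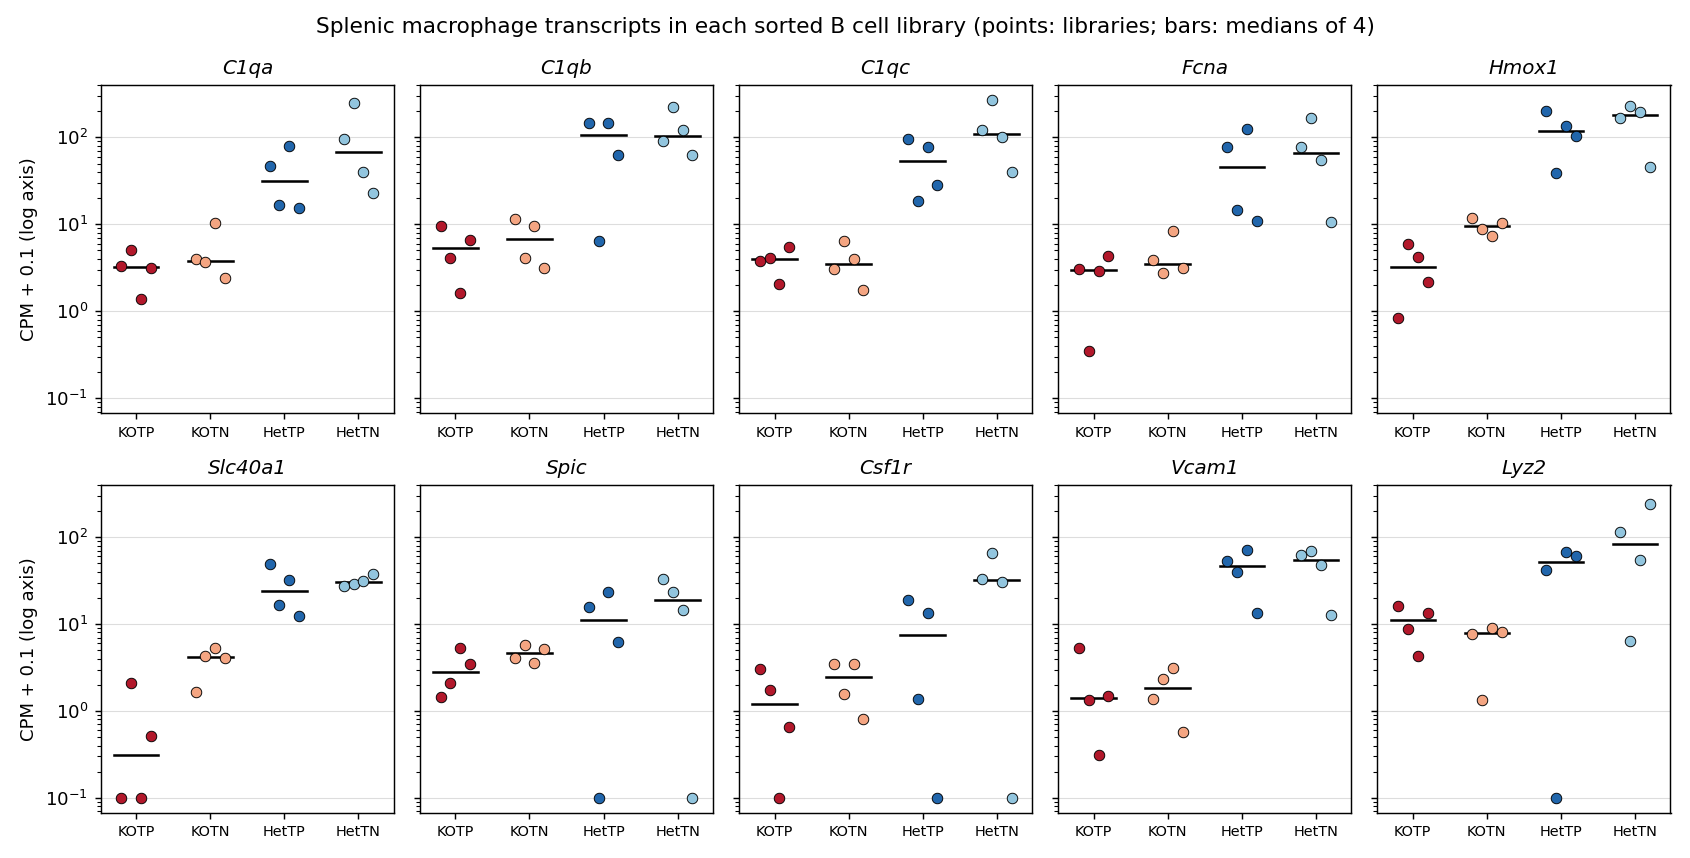
Level of each of the 10 genes in every library, as CPM plus 0.1 on a log axis, by group. Points are libraries, bars are medians of 4, and points at the bottom are libraries with no count. Slc40a1 and Hmox1 differ most between the genotypes in tdTomato-positive cells, while Spic overlaps between them.

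Over the 10 genes the median change was -3.74 in KOTP over HetTP and -4.0 in KOTN over HetTN, beside medians of -0.03 and 0.0 over all tested genes. In the tdTomato-positive gate 6 of 10 had all KOTP libraries below all HetTP libraries, where 13.8% of all genes did and 20.8% had no overlap in either direction. In the tdTomato-negative gate 7 had all KOTN libraries below all HetTN libraries, where 8.5% of all genes did and 18.9% had no overlap in either direction. These contrasts helped to choose the genes, and nothing is read from the counts. Some changes moved by over 1.5 times as a fold when 1 library was left out, the most for Slc40a1, which stood at -7.02 in KOTP over HetTP without KOTP replicate 2. With limma voom, Lyz2 stood at -0.37 and Spic at -0.38 in KOTP over HetTP.

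Over all genes, 541 rose and 558 fell in KOTP over HetTP, and 600 rose and 521 fell in KOTN over HetTN. The split moved with the scaling. With upper quartile scaling 693 rose and 469 fell in the tdTomato-positive gate, and 745 rose and 429 fell in the tdTomato-negative gate. With library totals 351 rose and 911 fell in the tdTomato-positive gate, and 487 rose and 634 fell in the tdTomato-negative gate. The median of all genes in KOTP over HetTP was -0.25 with library totals, against a median of -3.97 for the 10 genes.

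**Figure D2:**
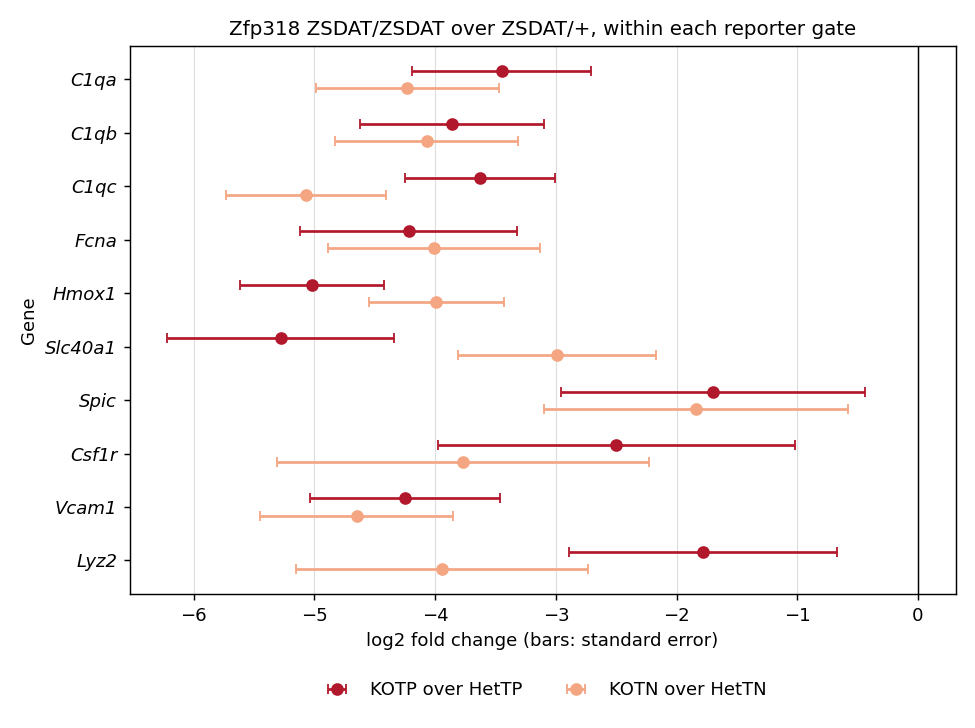
Log2 fold change of homozygous over heterozygous cells for each gene, in tdTomato-positive (KOTP over HetTP) and tdTomato-negative cells (KOTN over HetTN), with standard errors. All 20 values lie below 0, from -5.28 for Slc40a1 in tdTomato-positive cells to -1.7 for Spic in the same gate.

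Per kilobase of coding sequence, mean levels in heterozygous libraries ran in the order Lyz2 (165 CPM per kilobase), Hmox1 (162), C1qb (142), C1qc (128), C1qa (95.8), Fcna (66.8), Spic (20), Vcam1 (19.7), Slc40a1 (17.2) and Csf1r (6.97). In homozygous libraries the order was Lyz2 (19.1 CPM per kilobase), C1qb (8.1), Hmox1 (7.29), C1qa (5.56), Spic (5.15), C1qc (5.07), Fcna (3.5), Slc40a1 (1.27), Vcam1 (0.809) and Csf1r (0.596). With coefficients of variation of 40.6% to 94.5% in homozygous and 39.6% to 111% in heterozygous libraries, neighbours in these orders did not differ beyond their spread. In both genotypes Csf1r stood last. Lyz2 stood first in both, but its place in heterozygous libraries rests on HetTN replicate 4, at 242 CPM. Together the 10 genes took 0.00213% to 0.0063% of the counts of a homozygous library and 0.0151% to 0.133% of those of a heterozygous library. In bulk libraries, fewer cells of a type and less RNA per cell cannot be told apart.

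Other macrophage genes did not all follow. Of 17 further genes of red pulp macrophages, 11 were tested. In KOTP over HetTP 1 passed, where 10.3% of all genes did, and in KOTN over HetTN 0 passed, where 10.5% did. Several had large standard errors, up to 2.49 for Slc11a1 in KOTN over HetTN, so not passing does not show an unchanged level. The gene that passed was Hpgd, which encodes a prostaglandin-degrading enzyme and is a marker of this cell type. Hpgd fell to 0.166 ± 0.205 CPM in KOTP, against 5.83 ± 5.85 CPM in HetTP (SD, n = 4 each), a change of -4.71 ± 1.24 (edgeR adjusted p = 0.019). The median change of the 11 was -1.67 in tdTomato-positive and -2.06 in tdTomato-negative cells. Apoe, an apolipoprotein gene that these B cell libraries expressed throughout, had 1014 to 1612 CPM in homozygous and 878 to 3151 CPM in heterozygous libraries. Cd68 had 14.9 to 48.8 CPM in homozygous and 11.9 to 70.4 CPM in heterozygous libraries. Its changes were -0.21 ± 0.37 in tdTomato-positive and -0.07 ± 0.36 in tdTomato-negative cells (edgeR adjusted p = 0.851 and 0.954).

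Adgre1, which encodes F4/80, the classical surface marker of red pulp macrophages, stood the other way. It had 34.9, 52.3, 31.8 and 29.7 CPM in KOTP and 42.2, 42.4, 44.6 and 32.4 CPM in KOTN. The heterozygous values were 24.5, 0, 13.5 and 5.5 CPM in HetTP and 21.6, 17.1, 11.2 and 0 CPM in HetTN. Every homozygous library lay above every heterozygous one, but the changes of 2.01 ± 1.02 and 1.82 ± 1.01 did not pass (edgeR adjusted p = 0.275 and 0.307). Other defining macrophage genes were at or near 0 in both genotypes. Treml4 had no count in any library, Mertk did not exceed 0.223 CPM in homozygous or 0.762 CPM in heterozygous libraries, and Maf did not exceed 0.247 CPM in homozygous or 0.187 CPM in heterozygous ones. Mertk, Treml4, Maf and Adgre1 were singled out after their values were seen.

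Among 5 genes of marginal zone and metallophilic macrophages, 3 were tested and none passed (edgeR adjusted p of 0.168 or more). Of all genes, 10.3% passed in KOTP over HetTP and 10.5% in KOTN over HetTN. The scavenger receptor gene Marco had 0 to 2.75 CPM in homozygous and 0 to 57.8 CPM in heterozygous libraries. Timd4, a receptor for dying cells, had 0 to 2.1 CPM in homozygous and 0 to 36.4 CPM in heterozygous libraries. Nr1h3 had 0.501 to 3.21 CPM in homozygous and 0 to 35.3 CPM in heterozygous libraries. The metallophilic markers Siglec1 and Cd209b had at most 1.4 and 0 CPM in homozygous and at most 2.92 and 5.91 CPM in heterozygous libraries.

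Genes listed for other blood cells also differed between the tables, and which cells they came from was not tested. The 9 T cell genes summed to 26.3 to 47.8 CPM in homozygous and 206 to 676 CPM in heterozygous libraries. Of the 4 tested, Trac and Lck fell in both gates. Lck made up most of the homozygous sum, at 26.1 to 46.1 CPM, and had 57 to 138 CPM in heterozygous libraries. Of all genes, 10.3% passed in KOTP over HetTP and 10.5% in KOTN over HetTN. Trac, the constant region of the T cell receptor alpha chain, had no count in 7 homozygous libraries and 0.216 CPM in the eighth, against 99.4 to 464 CPM in heterozygous libraries. The T cell genes Cd4, Cd28 and Bcl11b had no count in any library. Cd3e and Cd8a had no count in homozygous libraries and ran from 0 to 11.3 and 0 to 10.1 CPM in heterozygous ones. Cd3d ran from 0.216 to 1.73 CPM in homozygous and 0 to 32.1 CPM in heterozygous libraries. Cd3g ran from 0 to 0.234 CPM in homozygous and 0 to 23.5 CPM in heterozygous libraries. The 8 erythroid genes found summed to 10.3 to 21.7 CPM in homozygous and 14.4 to 243 CPM in heterozygous libraries. The highest sum rests on HetTP replicate 4, which had 164 CPM of the erythroid factor gene Klf1, against at most 3.43 CPM in any other heterozygous library. Of the 6 tested, Hba-a1, whose reads cannot be told for certain from those of its near-identical copy Hba-a2, fell in both gates (edgeR adjusted p = 0.0274 in tdTomato-positive and 0.0162 in tdTomato-negative cells). The 12 monocyte and neutrophil genes found summed to 9.01 to 22.7 CPM in homozygous and 0.723 to 299 CPM in heterozygous libraries, and S100a8 fell in KOTN over HetTN (edgeR adjusted p = 0.0265). That result rests on HetTN replicate 3, which had 150 CPM of S100a8, against at most 8.59 CPM in any other heterozygous library.

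Dendritic cell genes summed to 45 to 62.7 CPM in homozygous and 19 to 48.5 CPM in heterozygous libraries, and most of the homozygous sum was Flt3, a growth factor receptor gene. Flt3 was higher in KOTP over HetTP by 1.11 ± 0.32 (edgeR adjusted p = 0.0333). Zbtb46 also stood higher, at 1.68 to 5.61 CPM in homozygous and 0 to 1.58 CPM in heterozygous libraries. It did not pass (edgeR adjusted p = 0.306 in tdTomato-positive and 0.106 in tdTomato-negative cells). Some other genes of the list had higher maxima in heterozygous cells, such as Clec10a, with no count in homozygous and 0 to 26.9 CPM in heterozygous libraries. The 5 platelet genes summed to 0.644 to 2.8 CPM in homozygous and 0 to 30.7 CPM in heterozygous libraries. The 11 stromal and endothelial genes summed to 0.216 to 2.22 CPM in homozygous and 0 to 21.8 CPM in heterozygous libraries, and 5 of them had no count anywhere, among them Dcn and Col1a2. Stab2, the 1 gene tested, had 0 to 1.25 CPM in homozygous and 0 to 17.3 CPM in heterozygous libraries. It did not pass (edgeR adjusted p = 0.664 in tdTomato-positive and 0.154 in tdTomato-negative cells). Within the B cell genes, 5 of 7 rose and Pax5 fell in KOTP over HetTP, where 10.3% of all genes passed in either direction. In KOTN over HetTN 4 rose and Pax5 fell, where 10.5% of all genes passed.

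Over 17 alternatives for each comparison, the calls of Trac, Lck, Cfp, Ftl1 and Bach2 held each time. Those of Hpgd, Flt3, Hba-a1, S100a8 and Irf8, and of Csf2rb in tdTomato-negative cells, were lost under some, among them the removal of any 1 of several libraries. Their highest adjusted p-values were 0.0621 for Hpgd, 0.0965 for Flt3, 0.106 and 0.0602 for Hba-a1, 0.0969 for Irf8 and 0.0524 for Csf2rb. S100a8 had an edgeR adjusted p of 0.293 without HetTN replicate 3. Among the B cell genes, the calls of Cd79b, Ms4a1 and Pax5 were lost under 1 to 3 alternatives in a gate, with edgeR adjusted p-values up to 0.0944.

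The part of other cell types, depth and library quality in the levels of the 10 genes was not tested.

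The reporter gates were compared within each genotype, where both gates come from the same table. In homozygous cells, 7 of 10 genes were lower and 3 higher in KOTP than in KOTN by their fitted values, where 51.7% of all genes were lower, and the median was -0.62, against -0.01 over all genes. None of the 10 passed, where 0.0187% of all genes did. The smallest unadjusted p-values among the 10 belonged to Slc40a1 and Hmox1. Slc40a1 averaged 0.605 ± 0.952 CPM in KOTP and 3.73 ± 1.54 CPM in KOTN, and Hmox1 averaged 3.18 ± 2.21 CPM in KOTP and 9.47 ± 1.85 CPM in KOTN (SD, n = 4 each). Their changes were -2.61 ± 0.87 for Slc40a1 (edgeR unadjusted p = 0.00725, adjusted p = 1.0) and -1.57 ± 0.55 for Hmox1 (edgeR unadjusted p = 0.0109, adjusted p = 1.0). Without KOTP replicate 2, which held most of the Slc40a1 counts of its group, the Slc40a1 change was -4.35 and did not pass (edgeR adjusted p = 0.438).

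Whether these differences pass depends on the fit. The 16-library fit shares its spread with the more variable heterozygous libraries. With the 8 homozygous libraries fitted alone, Hmox1 passed at -1.55 (edgeR adjusted p = 0.0437), where 2.37% of all genes did, and Slc40a1 did not (edgeR adjusted p = 0.1). With limma voom and library quality weights, Slc40a1 passed at -4.07 (adjusted p = 0.00403), where 3.16% of all genes did, and Hmox1 did not (limma adjusted p = 0.191). With DESeq2 neither passed (adjusted p = 0.363 for Slc40a1 and 0.798 for Hmox1). Hmox1 was the only one of the 10 whose KOTP and KOTN libraries did not overlap, where 7.03% of all genes did not, and 4.51% had all KOTP libraries below all KOTN libraries. Both iron genes lay at under 12 CPM in all 8 homozygous libraries.

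In heterozygous cells all 10 genes had lower fitted values in HetTP than in HetTN, where 47.9% of all genes did, and the median was -0.64, against 0.02 over all genes. Most of the 10 genes moved together across these libraries, so the 10 signs are not separate results. None of the 10 passed, where 1.07% of all genes did, and none had groups without overlap, where 4.7% of all genes had. With the 8 heterozygous libraries fitted alone, 0 of all genes passed in edgeR (0.0%) and 487 had an unadjusted p-value under 0.05, while DESeq2 on all libraries called 709. The 2 genes with an unadjusted p-value under 0.05 in the 16-library fit were C1q chains. C1qa averaged 39.8 ± 30.9 CPM in HetTP and 101 ± 101 CPM in HetTN, a change of -1.45 ± 0.67 (edgeR adjusted p = 0.288). C1qc averaged 55.5 ± 37.9 CPM in HetTP and 133 ± 97.7 CPM in HetTN, a change of -1.38 ± 0.55 (edgeR adjusted p = 0.206). The unadjusted 95% interval of the change ran from -2.86 to -0.04 for C1qa and from -2.53 to -0.22 for C1qc. HetTN replicate 2 was the highest library for both, and without it the change was -0.46 for C1qa and -0.73 for C1qc. The median change of the 10 genes was -0.40 without that library and -0.27 without HetTP replicate 2.

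The reporter effect did not pass as different between homozygous and heterozygous cells for any of the 10 genes, where 0.122% of all genes passed. The difference, homozygous minus heterozygous effect, was -2.29 ± 1.13 for Slc40a1 (edgeR adjusted p = 0.56), 1.44 ± 0.81 for C1qc (edgeR adjusted p = 0.649) and -1.03 ± 0.74 for Hmox1 (edgeR adjusted p = 0.785). For Slc40a1 its unadjusted 95% interval ran from -4.67 to 0.09, and the difference was -4.04 without KOTP replicate 2.

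**Figure D3:**
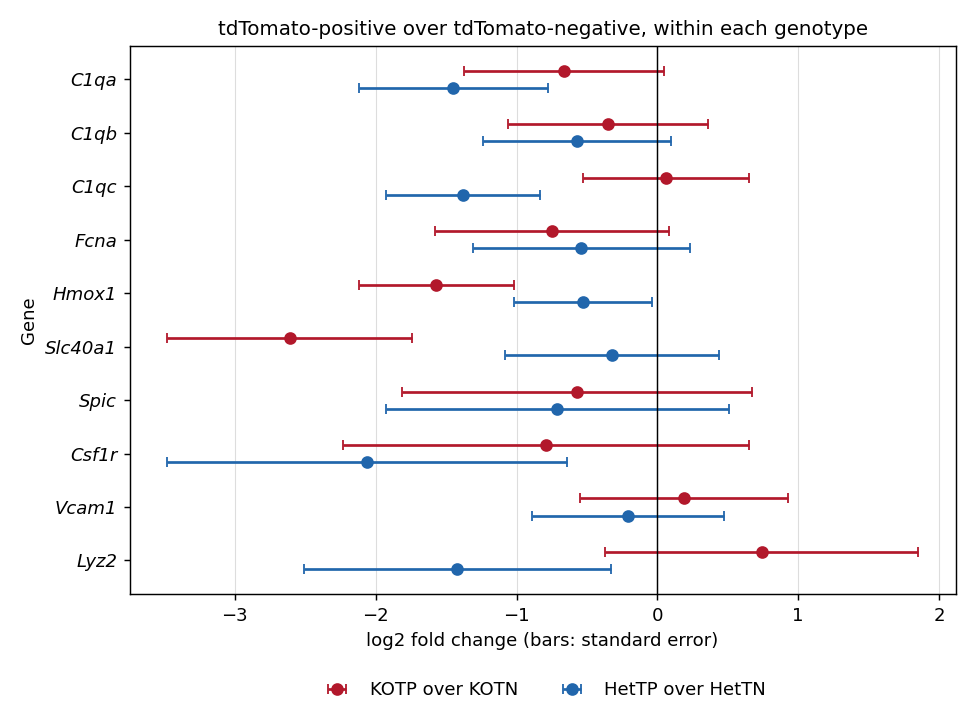
Log2 fold change of tdTomato-positive over tdTomato-negative cells for each gene, in homozygous cells (KOTP over KOTN) and heterozygous cells (HetTP over HetTN), with standard errors. All 10 heterozygous values lie below 0 and none passed, and the homozygous values run from -2.61 for Slc40a1 to 0.74 for Lyz2.

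The 10 genes were then compared across the libraries of a genotype, as correlations of log2(CPM + 1) given without a p-value, because the genes were chosen from these data. Each library is a point, and the points of a genotype share a table and a pair of gates. Across the 8 heterozygous libraries, summed C1q went with Hmox1 (r = 0.88, rho = 0.76), Fcna (r = 0.87, rho = 0.90), Spic (r = 0.84, rho = 0.89) and Csf1r (r = 0.83, rho = 0.75). Of all tested genes, 0.263% to 0.601% had an r at least as high as these 4. Without the libraries farthest from the median, HetTP replicate 2 and HetTN replicate 2, r was 0.77 for Hmox1, 0.98 for Fcna, 0.80 for Spic and 0.96 for Csf1r. Vcam1 had r = 0.59 and rho = 0.88, and r = 0.99 without those libraries. Slc40a1 had r = 0.57 and rho = 0.36, and r = 0.58 without them. Of all tested genes, 6.13% had an r at least as high as that of Vcam1 and 6.9% as that of Slc40a1.

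Lyz2 followed summed C1q least of the genes compared, with Slc40a1 next. The r of Lyz2 was 0.31 (rho = 0.10), reached by 19.5% of all tested genes, and -0.41 without the same libraries. Its highest library was HetTN replicate 4, at 242 CPM, which was among the 3 lowest heterozygous libraries for 8 of the 10 genes. HetTN replicate 2, the highest library for 6 of the 10 genes, had 6.36 CPM of Lyz2.

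Over the 7 genes the median r with summed C1q was 0.83 in heterozygous libraries, against -0.05 over 10648 tested genes. In the 8 homozygous libraries it was 0.29, against -0.03 over 10673 genes. There, Csf1r (r = 0.86, rho = 0.81) and Vcam1 (r = 0.79, rho = 0.79) had the highest r, which fell to 0.66 and 0.34 without KOTP replicate 3 and KOTN replicate 4. Hmox1 (r = -0.05, rho = 0.07) and Spic (r = -0.45, rho = -0.40) were at or below 0. Among the chains of C1q, C1qa and C1qc had r = 0.44 in homozygous and 0.93 in heterozygous libraries (rho = 0.45 and 0.88). C1qb and C1qc had r = 0.39 in homozygous and 0.84 in heterozygous libraries (rho = 0.21 and 0.79). The homozygous counts were low, at 14 to 78 per library for C1qc, where counting error is larger relative to the value.

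**Figure D4:**
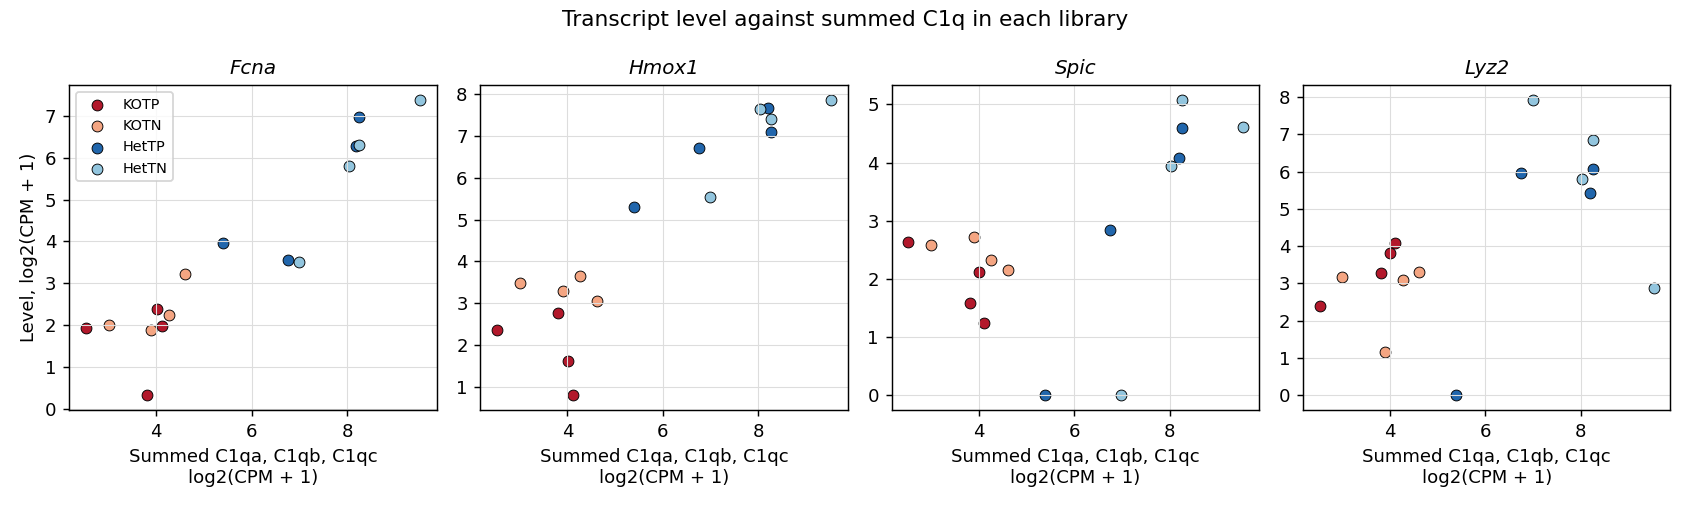
Level of Fcna, Hmox1, Spic and Lyz2 against summed C1qa, C1qb and C1qc in each of the 16 libraries, both as log2(CPM + 1). Within the heterozygous points Fcna, Hmox1 and Spic climb with summed C1q (r = 0.87, 0.88 and 0.84), while Lyz2 does not (r = 0.31).

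The same heterozygous libraries were low for nearly all genes. HetTP replicate 2 was among the 3 lowest of the 8 for 10 of 10 genes, HetTP replicate 4 for 9 and HetTN replicate 4 for 8. The mean deviation of the 10 genes from their group mean, on the log2(CPM + 1) scale, was 1.08, -1.66, 1.19 and -0.62 in the HetTP libraries and 0.53, 0.74, 0.16 and -1.43 in the HetTN libraries. HetTP replicates 1 and 3 had all 10 genes above the HetTP mean. Over the heterozygous libraries summed C1q had r = -0.13 (rho = -0.10) with the total count and r = -0.06 (rho = 0.05) with the number of detected genes. With the summed B cell genes r was -0.05 (rho = -0.05), and -0.51 without HetTP replicate 2 and HetTN replicate 2. With the summed T cell genes r was 0.17 (rho = 0.43), and 0.84 without the same libraries.

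**Figure D5:**
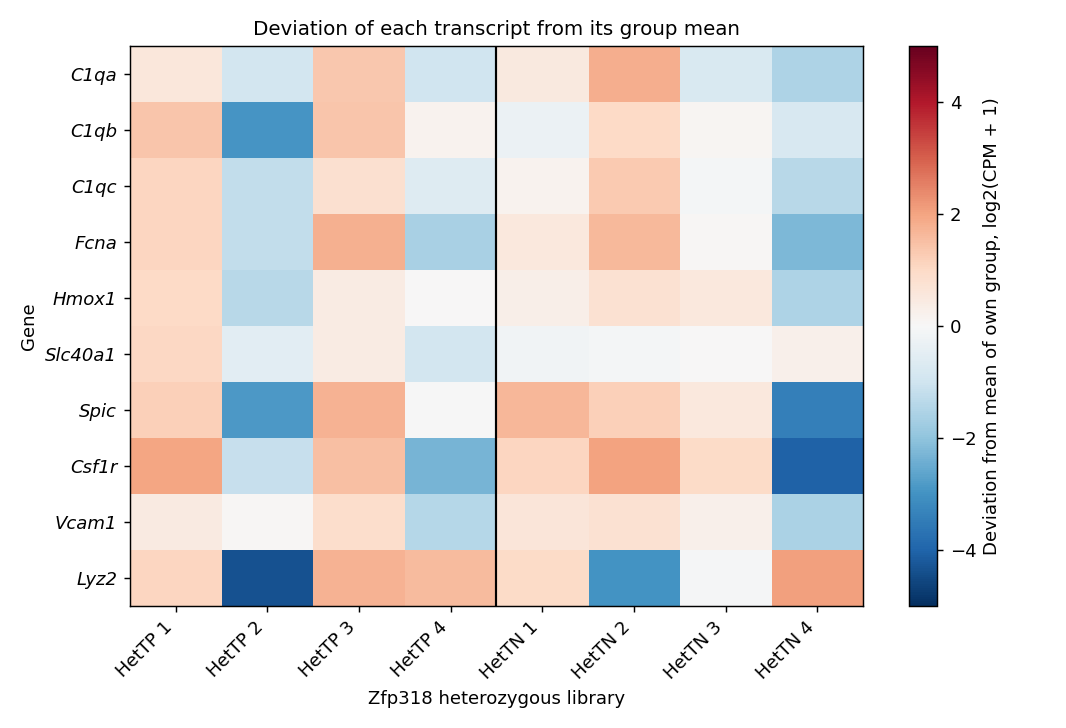
Deviation of each gene in each heterozygous library from the mean of its own group, as log2(CPM + 1), in red above and blue below the mean. HetTP replicate 2 and HetTN replicate 4 are low for most genes, and Lyz2 is high in HetTN replicate 4.

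Each gene was also set against the mean deviation of the other 9 over the 8 heterozygous libraries. The r was 0.94 for C1qc, 0.92 for Spic, 0.91 for Hmox1, 0.90 for Fcna, 0.83 for C1qb, 0.81 for C1qa and 0.81 for Csf1r. Vcam1 followed with 0.69, Slc40a1 with 0.50 and Lyz2 with 0.05, beside a median of 0.02 over 8652 genes. An r at least as high was reached by 5.65% of those genes for Vcam1, 14.7% for Slc40a1 and 48.2% for Lyz2. For C1qc it was 0.196% and for C1qa 1.87%. Among those 8652 genes, the 10 most like the mean of the set were Mcl1 (r = 0.98), Ninj1 (0.98), Egln2 (0.97), Arhgef6 (0.97), Mast4 (0.97), Pparg (0.96), Gclc (0.96), Elf4 (0.96), Yipf3 (0.95) and Yipf4 (0.95). Most of these are expressed in homozygous cells too. Pparg, a nuclear receptor of fat and macrophage biology, averaged 0.0938 CPM in homozygous libraries, against 4.76 CPM in HetTP and 6.54 CPM in HetTN. With 8 points and 8652 genes, values of r this high were reached by genes of many kinds. Of the listed macrophage genes, Adgre1 ranked 12, Cd5l 16 and Itgad 26 of the 8652.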

How the data were processed

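Messenger RNA of 16 libraries was read from the counts the authors deposited, 1 table per genotype, which the file headers name raw counts for coding regions. Trimming used Trim Galore, alignment STAR 2.2.0 to mm10 and counting featureCounts, per the submitters' processing notes; strand and read-pair settings are not given in the sources used here. Genes with exactly 2 counts outnumbered those with 1 in both tables. Homozygous libraries had 400 to 564 genes at 2 counts and 66 to 94 at 1. Heterozygous libraries had 139 to 178 at 2 counts and 40 to 109 at 1, so low counts differed between the tables. The 16 deposited per-million columns were not used.

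Tables were joined on the symbol (22675 genes). Counts were scaled with TMM, filtered by group and tested with the robust quasi-likelihood test of edgeR 4.0.16 (R 4.3.3) on group means of all 16 libraries, with Benjamini-Hochberg adjustment over the 10687 genes tested. CPM divides the deposited counts by the library total in units of 1000000, and the floor of 3 counts covers counting error only, since no molecular identifiers were used. Alternatives included limma 3.58.1 and DESeq2 1.42.0. The code was tested on simulated data. Coordinates are from GENCODE M21. Named genes were the 10 and the 10 non-members most like them (mean of at least 5 CPM in heterozygous libraries, highest r of deviations from group means). The plan was to name at most 4 per list by size or level. Other genes were named too in the T cell, B cell, red pulp macrophage, marginal zone macrophage and stromal lists. Genes said to be chosen after their values were seen were named as well. The 10 genes and 12 lists were chosen with earlier results of these data known, and 1 listed gene is not reported here. Correlations had been planned with a permutation test adjusted over the relations of the 10 genes, and are given as descriptions instead.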

Additional observations from a re-analysis of the deposited data

How the results depend on the processing

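No pairing of libraries by replicate number was seen, though groups of 4 cannot exclude it. Same-numbered libraries correlated in their deviations at 0.00 to 0.08 between KOTP and KOTN and at -0.01 to 0.10 between HetTP and HetTN. The best match was the same-numbered library for 2 of 4 KOTP libraries and 1 of 4 HetTP libraries. With the replicate block, 0 genes passed in KOTP over KOTN, 54 in HetTP over HetTN and 1 in the difference, and none of the 10 genes. The counts of all genes passing were 2 in KOTP over KOTN, 114 in HetTP over HetTN and 13 in the difference. For KOTP over KOTN they were 1 with library totals, 0 without the filter, 11 with DESeq2, 338 with limma voom and 236 with the libraries fitted alone, where limma voom and the fit alone each called 1 of the 10. For HetTP over HetTN they were 709 with DESeq2, 4 with limma voom and 0 with the libraries fitted alone. For the difference they were 6 with library totals, 194 with DESeq2 and 7 with limma voom. In KOTN over HetTN 1121 genes passed, and 724 with those libraries fitted alone. Leaving out 1 library gave 0 to 1 genes in KOTP over KOTN, 123 to 488 in HetTP over HetTN, 1 to 41 in the difference, 722 to 1120 in KOTP over HetTP and 608 to 1280 in KOTN over HetTN. The median change of the 10 genes then ran from -1.34 to -0.27 in HetTP over HetTN and from -0.13 to 0.77 in the difference. Signs of small changes turned. In HetTP over HetTN, Fcna ran from -1.31 to 0.20 with 1 library left out, turning without HetTN replicate 2, and Vcam1 from -0.56 to 0.09, turning without HetTP replicate 4 or HetTN replicate 2 (0.04). In KOTP over KOTN, C1qc ran from -0.21 to 0.45 and turned without KOTP replicate 4 or KOTN replicates 1 (-0.03) or 4 (-0.19). Vcam1 ran there from -0.82 to 0.58, turned without KOTP replicate 1 or KOTN replicate 4 (-0.13), and was -0.27 with limma voom. Spic in KOTN over HetTN was 0.11 with limma voom. The median of all genes moved with limma voom to 0.19 in KOTP over HetTP, 0.33 in KOTN over HetTN and -0.12 in the difference, with library totals to 0.14 in HetTP over HetTN and -0.18 in the difference, and with the replicate block to 0.15 in KOTN over HetTN. The cause of these turns was not tested. Lyz2 had r = -0.77 with summed C1q without HetTP replicate 2 and 0.70 without HetTN replicate 2. Levels at a few counts per library, as for Slc40a1 in KOTP, limit what can be told apart.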
